A study of Mus musculus with 8 samples.

Results

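The 7 genes described here encode the skeletal and cardiac troponin subunits, and were taken by symbol from a count table of 23420 gene lines. They are Tnnt1, Tnnt2 and Tnnt3 for troponin T, Tnni1 and Tnni2 for troponin I, and Tnnc1 and Tnnc2 for troponin C. All 7 passed the filter on low counts, which left 13167 genes for testing. The choice used no measured value, although it was made with earlier results of these data known.

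The cells were C2C12, a line of mouse myoblasts that withdraw from the cell cycle and fuse into myotubes when serum is lowered. One genotype is labelled WT and the other AUF1 overexpression. Growth was in 10% fetal bovine serum, and all cells then spent 48 h in 2% horse serum before RNA was collected, so every group shares the differentiation step. Total RNA and RNA from the heavy polysome fraction, which holds mRNAs carrying many ribosomes, were sequenced from each genotype, giving 4 groups of 2 libraries (WT total, AUF1 total, WT polysome, AUF1 polysome). The promoter driving AUF1, an empty vector in the WT cells and a pooled or clonal origin of the lines are unstated in the sources used here, so AUF1 and any other difference between the lines cannot be told apart. Nothing states whether both libraries of a group are from separate cultures, and p-values then measure only the spread between these libraries. The stated aim was to ask how AUF1 affects the stability and translation of muscle mRNAs.

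Troponin sits on the thin filament of striated muscle as a complex of 3 subunits. Troponin T ties the complex to tropomyosin, troponin I holds back the interaction of actin with myosin, and troponin C binds calcium and releases that block. Each subunit has genes used mainly in slow or mainly in fast fibres, and the heart shares some of them. AUF1, the product of Hnrnpd, is an RNA-binding protein that attaches to AU-rich elements, often built from ATTTA pentamers, in 3' untranslated regions and can change how long an mRNA lasts or how well it is translated.

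None of the 7 troponin mRNAs held an ATTTA pentamer in its longest annotated 3' untranslated region (0 of 7, GENCODE M21 annotation of GRCm38). These regions are short: 100 bases in Tnni2, 141 in Tnnc2, 178 in Tnnt3, 185 in Tnnt1, 188 in Tnnt2, 192 in Tnnc1 and 379 in Tnni1. Among tested genes with an annotated 3' untranslated region, 8388 of 11964 (70.1%) held the pentamer. Among the 1890 whose region was 100 to 379 bases long, as in the troponin genes, 563 (29.8%) did. The absence of these letters is a description of the annotated sequence and says nothing of whether AUF1 binds these mRNAs.

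The proximal promoters are shown because the 7 genes lie on 4 chromosomes and had similar differences between the genotypes. RefSeq promoter windows (GRCm38.p6, 250 bases before a transcription start) were found for 5 of the 7 genes, all but Tnnt3 and Tnni2. Both strands were searched for CANNTG, the E-box read by MyoD and myogenin, for CATTCC, the core of the M-CAT element read by TEAD factors, and for the MEF2 site and the CArG box. CAGCTG, a form of the E-box, is a subset of CANNTG. In the 4 sequences below, written 5′ to 3′ on the gene's strand and cut where an annotated exon of the gene begins, capitals mark CANNTG and CATTCC, the latter read as GGAATG when on the other strand.
Tnnt2 (chr1:135836084-135836333, plus strand): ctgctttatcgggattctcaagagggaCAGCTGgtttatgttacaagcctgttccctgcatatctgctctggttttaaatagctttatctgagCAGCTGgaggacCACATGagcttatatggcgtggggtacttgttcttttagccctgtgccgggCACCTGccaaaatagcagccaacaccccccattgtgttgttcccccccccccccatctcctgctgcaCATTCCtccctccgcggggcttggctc
Tnni1 (chr1:135799171-135799401, plus strand): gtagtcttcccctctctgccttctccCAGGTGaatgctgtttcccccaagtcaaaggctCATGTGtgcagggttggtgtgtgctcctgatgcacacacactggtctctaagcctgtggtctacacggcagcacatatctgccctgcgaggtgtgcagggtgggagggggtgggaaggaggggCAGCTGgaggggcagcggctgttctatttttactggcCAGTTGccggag
Tnnc1 (chr14:31208062-31208311, plus strand): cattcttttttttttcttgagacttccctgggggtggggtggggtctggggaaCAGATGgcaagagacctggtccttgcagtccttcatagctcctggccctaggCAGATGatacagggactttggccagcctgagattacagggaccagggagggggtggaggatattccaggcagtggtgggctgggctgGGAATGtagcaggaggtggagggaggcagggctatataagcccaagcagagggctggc
Tnnt1 (chr7:4516005-4516225, minus strand): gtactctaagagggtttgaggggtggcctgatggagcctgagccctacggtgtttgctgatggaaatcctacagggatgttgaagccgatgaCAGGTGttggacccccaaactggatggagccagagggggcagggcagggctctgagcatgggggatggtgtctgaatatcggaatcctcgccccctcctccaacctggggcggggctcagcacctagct
The Tnnt2 and Tnni1 windows each held 4 CANNTG matches, a number reached by 3.84% of the 32851 windows in the table. The Tnnc1 window held 2, as did the Tnnc2 window, which is not printed, and 31.8% of all windows held at least that many. An annotated Tnnc2 exon begins after the first 17 bases of the Tnnc2 window, and both of its matches lie beyond this point. The Tnnt1 window held 1, and 66.2% of windows held at least 1. CAGCTG occurred in the windows of Tnnt2, with 2 matches, and Tnni1, with 1, against 13% of all windows. CATTCC occurred in the windows of Tnnt2, at base -27 from the start, and Tnnc1, at base -58, against 12.6% of all windows. No MEF2 site and no CArG box were found in the 5 genes' windows, motifs present in 2.92% and 1.47% of all windows. Tnnt2 and Tnni1 each have a further RefSeq start, whose windows held 1 and 2 CANNTG matches. An annotated Tnnt2 exon begins before the further Tnnt2 window and reaches into it. The further Tnni1 window overlaps the printed one, and its 2 matches are the CAGCTG and CAGTTG already marked there.

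Of the 7 genes, 4 lie in pairs of a troponin I and a troponin T gene, and Tnnt1 lies beside the cardiac troponin I gene. Tnni1 (chromosome 1, 135779434 to 135810989, plus strand) and Tnnt2 (chromosome 1, 135836354 to 135852260, plus strand) lie 25364 bp apart with Lad1 the 1 protein-coding gene between them. Tnni2 (chromosome 7, 142441808 to 142444410, plus strand) and Tnnt3 (chromosome 7, 142498836 to 142516009, plus strand) lie 54425 bp apart with Lsp1 the 1 protein-coding gene between them. Tnnt1 (chromosome 7, 4504570 to 4516382, minus strand) lies 1922 bp from Tnni3. Tnnc1 (chromosome 14, 31208312 to 31211729, plus strand) lies inside Nisch, and Tnnc2 (chromosome 2, 164777161 to 164779967, minus strand) overlaps Ube2c over 1662 bp, in both cases on opposite strands. The sources used here do not give the strand setting of the counting, so reads of these overlapping partners cannot be fully told apart. Nisch and Ube2c themselves differed by log2 0.69 ± 0.34 (SE, adjusted p = 0.463) and 0.49 ± 0.37 (adjusted p = 0.660) between AUF1 and WT cells in total RNA (edgeR).

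Libraries held 25281224 to 34917660 gene counts, of which the 7 genes together took 55020 to 521385. Values below are CPM, counts put on a common library size with TMM factors, in the order replicate 1, replicate 2. Hnrnpd, which checks the labels, gave 64.2 and 99.6 CPM in WT against 448 and 397 in AUF1 total RNA, and 106 and 131 in WT against 549 and 427 in AUF1 polysomes. It was higher in every AUF1 library, by log2 2.37 ± 0.32 (SE, edgeR adjusted p = 0.0413) in total RNA and 2.04 ± 0.32 (adjusted p = 0.0608) on polysomes.

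The first comparison asked how AUF1 overexpression altered troponin mRNA in total RNA. All 7 troponin genes had a higher value in both AUF1 libraries than in either WT library, with fold changes of 5.07 (Tnnt1) to 6.79 (Tnnt3). Two-sided quasi-likelihood tests in edgeR, with Benjamini-Hochberg adjustment over the 13167 genes, called Tnni1 and Tnni2 higher at an adjusted p under 0.05. That is 2 of 7, beside 0.82% of all genes called higher and 1.02% called in either direction. The other 5 genes had adjusted p-values from 0.0518 to 0.0828, and all 7 had an unadjusted p under 0.05. The share of all tested genes with an unadjusted p under 0.05 is not given, here or for the polysomes and gene lists below. Such counts therefore cannot be set against a background. Groups that did not overlap, with AUF1 the higher, were seen for 22.5% of all genes. The median log2 fold change of the 7 was 2.47, and that of all tested genes 0.00. In order of fold change among all tested genes, the 7 stood between place 288 (Tnnt3) and place 418 (Tnnt1). Both calls were lost when libraries were scaled by RLE size factors (Tnni1 adjusted p = 0.0501, Tnni2 0.0579, edgeR), when only these 2 groups were fitted, and when any 1 of the 8 libraries was left out, while DESeq2 called all 7 genes and 4.78% of all genes. With RLE size factors edgeR called 0 of the 13167 genes in either fraction, so every edgeR call given here is lost under that scaling. The same count, 0, was reached with any 1 library left out. In bulk RNA, more cells that express troponin and more troponin mRNA per cell cannot be told apart.

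**Figure D1:**
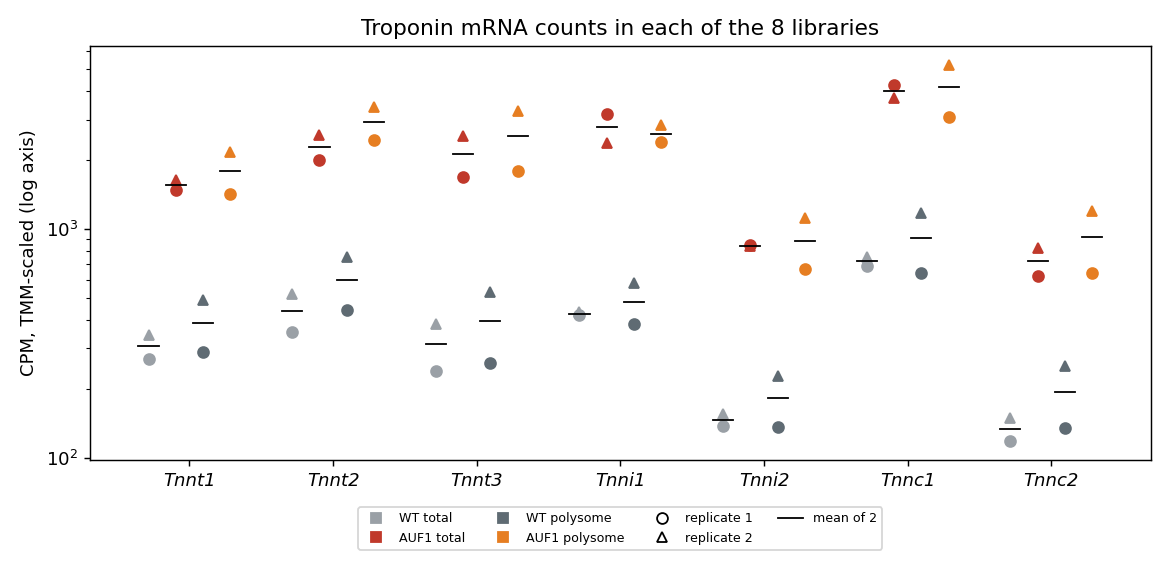
CPM on a log axis for each troponin gene in each of the 8 libraries, coloured by group, with circles for replicate 1, triangles for replicate 2 and a bar for the mean of 2. For every gene both AUF1 libraries of a fraction lie above both WT libraries of that fraction.

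Among the troponin T genes, Tnnt1 encodes the slow skeletal form and gave 270 and 344 CPM in WT against 1478 and 1635 in AUF1 total RNA (replicates 1 and 2). The means were 307 ± 52.1 and 1557 ± 111 CPM (SD, n = 2). The AUF1 libraries were close to each other and far above both WT libraries. The log2 fold change was 2.34 ± 0.37 (SE, edgeR adjusted p = 0.0518), and 2.45 and 2.25 within replicate numbers 1 and 2. Tnnt2 encodes the cardiac form, which is also made in embryonic skeletal muscle and in cultured myotubes. It gave 355 and 521 CPM in WT against 1997 and 2568 in AUF1 total RNA. Replicate 2 was the higher in both genotypes, and the groups did not overlap. Its log2 fold change was 2.38 ± 0.39 (edgeR adjusted p = 0.0540), and 2.49 and 2.30 within the numbers. Tnnt3 encodes the fast skeletal form and gave 239 and 385 CPM in WT against 1693 and 2550 in AUF1 total RNA. Of the 7 genes it had the largest fold change and also the largest standard error, with replicate 2 well above replicate 1 in both genotypes. Its log2 fold change was 2.76 ± 0.53 (edgeR adjusted p = 0.0828), and 2.82 and 2.73 within the numbers.

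Tnni1 encodes slow skeletal troponin I. It gave 420 and 433 CPM in WT against 3174 and 2383 in AUF1 total RNA, with means of 426 ± 9.61 and 2778 ± 560 CPM (SD, n = 2). Here replicate 1 was the higher AUF1 library, the opposite order from the troponin T genes, and both AUF1 libraries were far above WT. Tnni1 rose by log2 2.70 ± 0.31 (edgeR adjusted p = 0.0399), and by 2.92 and 2.46 within the numbers. Tnni2, the fast skeletal form, gave 137 and 155 CPM in WT against 846 and 842 in AUF1 total RNA. The 2 libraries of each group were nearly level. Tnni2 rose by log2 2.53 ± 0.38 (edgeR adjusted p = 0.0463), and by 2.62 and 2.44 within the numbers. Tnni3, the cardiac troponin I gene beside Tnnt1, is not one of the 7 and was near the detection floor in this table. It had 5 to 43 counts per library, or 0.184 to 1.36 CPM, and differed by log2 -0.34 ± 0.63 in total RNA (edgeR adjusted p = 0.905) and -1.47 ± 0.64 on polysomes (adjusted p = 0.384).

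Tnnc1 encodes the troponin C shared by slow skeletal and cardiac muscle. It gave 689 and 753 CPM in WT against 4267 and 3745 in AUF1 total RNA, with no overlap between the groups. The means were 721 ± 45.0 and 4006 ± 369 CPM (SD, n = 2). Its log2 fold change was 2.47 ± 0.40 (edgeR adjusted p = 0.0540), and 2.63 and 2.31 within the numbers. Tnnc2, the fast skeletal troponin C, gave 118 and 149 CPM in WT against 619 and 826 in AUF1 total RNA. Replicate 2 was again the higher in both groups. Its log2 fold change was 2.43 ± 0.46 (edgeR adjusted p = 0.0816), and 2.39 and 2.47 within the numbers.

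The same question was then put to RNA on heavy polysomes. All 7 genes were again higher in both AUF1 polysome libraries than in either WT polysome library, with fold changes of 4.57 (Tnnc1) to 6.41 (Tnnt3). The call went to Tnni1 alone, 1 of 7, beside 0.281% of all genes called higher and 0.349% called in either direction. Non-overlap with AUF1 the higher was seen for 23.6% of all genes. All 7 had an unadjusted p under 0.05, and DESeq2 called all 7, with 4.7% of all genes. The median log2 fold change of the 7 was 2.29, against 0.00 over all tested genes. The Tnni1 call was lost with RLE size factors (edgeR adjusted p = 0.0588), with only these 2 groups fitted, and with any 1 of the 8 libraries left out.

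On polysomes Tnni1 gave 385 and 577 CPM in WT against 2388 and 2831 in AUF1 cells, and rose by log2 2.44 ± 0.30 (edgeR adjusted p = 0.0461), by 2.63 and 2.29 within the numbers. Its partner Tnni2 gave 136 and 228 CPM in WT against 665 and 1112 in AUF1 cells, a log2 fold change of 2.29 ± 0.38 (adjusted p = 0.0667). The slow and the fast troponin I genes thus had separate WT and AUF1 polysome libraries, and replicate 2 was the higher throughout. Tnnt1 gave 289 and 489 CPM in WT against 1416 and 2171 in AUF1 polysomes, a log2 fold change of 2.20 ± 0.37 (edgeR adjusted p = 0.0690). Tnnt2 gave 440 and 750 CPM in WT against 2451 and 3406 in AUF1 polysomes, a log2 fold change of 2.30 ± 0.38 (edgeR adjusted p = 0.0690). Tnnt3 gave 260 and 532 CPM in WT against 1793 and 3284 in AUF1 polysomes, a log2 fold change of 2.68 ± 0.52 (edgeR adjusted p = 0.0916). For Tnnt3 the difference between replicate numbers was, on the log2 scale, the widest of the 7 genes in WT polysomes. Tnnc1 gave 639 and 1178 CPM in WT against 3091 and 5220 in AUF1 polysomes, a log2 fold change of 2.19 ± 0.40 (edgeR adjusted p = 0.0817). Tnnc2 gave 135 and 251 CPM in WT against 638 and 1197 in AUF1 polysomes, a log2 fold change of 2.25 ± 0.45 (edgeR adjusted p = 0.100). Both troponin C genes were higher in polysome replicate 2 than in replicate 1, in WT and in AUF1 cells. Within replicate numbers, the log2 differences of the 7 genes on polysomes ran from 2.15 to 2.79.

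**Figure D2:**
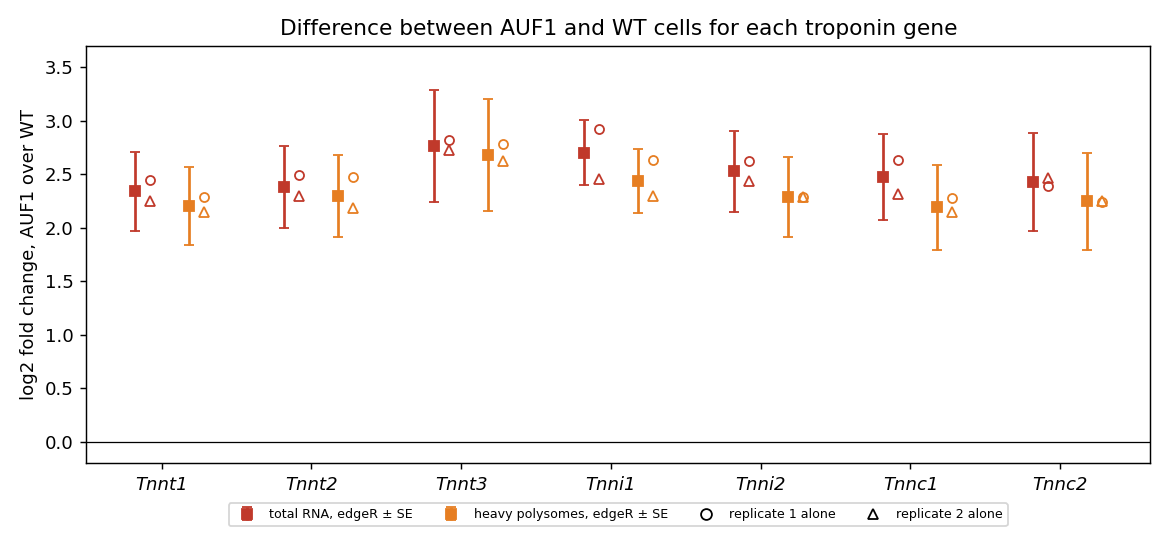
Log2 fold change of AUF1 over WT for each troponin gene in total RNA and on heavy polysomes, as squares with bars of 1 SE from edgeR, and open symbols for the change within replicate number 1 or 2. All values lie between 2.15 and 2.92 and the SE bars of the 2 fractions overlap for every gene.

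Summed over the 7 genes, troponin mRNA took 0.214% and 0.309% of gene counts in WT against 1.15% and 1.46% in AUF1 total RNA. On polysomes the sums were 0.237% and 0.445% in WT and 1.21% and 1.93% in AUF1 cells. The lowest AUF1 library was above the highest WT library in both fractions.

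Whether AUF1 altered the loading of troponin mRNA on polysomes was asked by the interaction, the AUF1 difference on polysomes minus that in total RNA. It ran from log2 -0.28 ± 0.54 (SE) for Tnnc1 to -0.08 ± 0.70 for Tnnt3 and was below 0 for all 7 genes, while 47.4% of all tested genes were above 0. No gene was called (0 of 13167, 0% of all genes, edgeR), no troponin gene had an unadjusted p under 0.05, and DESeq2 called none. Every one of these differences was smaller than its standard error. The sign of each turned with the library left out.

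Within 1 genotype, troponin mRNA was compared between heavy polysomes and total RNA. In WT cells the log2 difference ran from 0.17 ± 0.29 (SE) for Tnni1 to 0.53 ± 0.44 for Tnnc2 and was above 0 for all 7 genes, as for 52.0% of all tested genes. In AUF1 cells it ran from -0.09 ± 0.29 for Tnni1 to 0.36 ± 0.37 for Tnnt2, above 0 for 6 of 7 genes and for 47.9% of all tested genes. The polysome and total libraries overlapped for all 7 genes in both genotypes, while 13% (WT) and 8.86% (AUF1) of all genes had polysomes the higher without overlap. edgeR called no gene in either genotype (0% of all genes), and no troponin gene had an unadjusted p under 0.05. DESeq2 called 29 genes (0.168%) in WT and 22 (0.128%) in AUF1 cells, none of them a troponin gene.

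The 2 replicate numbers differed in this comparison. In replicate 2 polysomes were above total RNA for every troponin gene, by log2 0.41 to 0.75 in WT and by 0.25 to 0.54 in AUF1 cells. In replicate 1 the values ran from -0.12 to 0.31 in WT and from -0.46 to 0.30 in AUF1 cells. Tnnt2 was the most alike across the 4 pairs, at 0.31 and 0.53 in WT and 0.30 and 0.41 in AUF1 cells (replicates 1 and 2). Tnnc1, at -0.11 and 0.65 in WT and -0.46 and 0.48 in AUF1 cells, changed sign with the replicate number. So did Tnni1 and Tnni2 in both genotypes, and Tnnt1 in AUF1 cells.

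**Figure D3:**
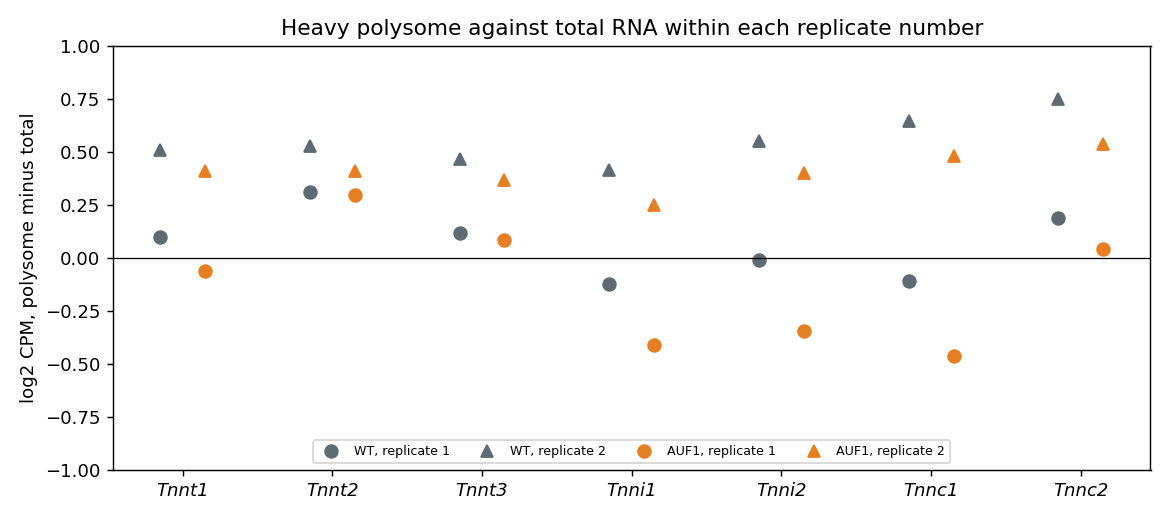
Log2 CPM on heavy polysomes minus log2 CPM in total RNA for each troponin gene, within each genotype and replicate number. All replicate 2 points (triangles) lie above 0, and replicate 1 points (circles) lie between -0.46 and 0.31.

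The difference between replicate numbers was itself uneven across the 7 genes. Replicate 2 minus replicate 1 for Tnnt3 was log2 0.69 in WT total, 0.59 in AUF1 total, 1.03 in WT polysomes and 0.87 in AUF1 polysomes. These were the largest of the 7 genes except in AUF1 polysomes, where Tnnc2 had 0.91. For Tnni1 it was 0.05, -0.41, 0.58 and 0.25 in the same order. In polysomes all 7 genes were higher in replicate 2 in both genotypes.

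Within each subunit the fast and slow genes were compared as a log2 ratio of counts in the same library, which cancels library scaling, and whose change between genotypes does not depend on gene length. For troponin T, the ratio of fast Tnnt3 to slow Tnnt1 was -0.18 and 0.16 in WT against 0.20 and 0.64 in AUF1 total RNA. On polysomes it was -0.16 and 0.12 in WT and 0.34 and 0.60 in AUF1 cells. The AUF1 libraries thus lay above the WT libraries in both fractions, in total RNA by a narrow gap, and replicate 2 lay above replicate 1 in all 4 groups. The mean change was 0.43 in total RNA (0.37 and 0.48 within the numbers) and 0.49 on polysomes (0.50 and 0.48). These ratios are a description and were not tested, and a two-sided exact permutation test of 2 libraries against 2 cannot give a p under 0.333. The log2 ratio of Tnnt2, the cardiac form, to Tnnt3 differed between AUF1 and WT by -0.38 in total RNA and -0.38 on polysomes. That of Tnnt3 to Tnnc2, also a fast gene, differed by 0.35 and 0.46, without overlap in either fraction. For Tnnt3 to fast Tnni2 the values were 0.24, with overlap, and 0.42, without. For Tnnt3 to slow Tnnc1 they were 0.30, with overlap, and 0.50, without. For Tnnt3 to slow Tnni1 they were 0.08 and 0.24, with overlap in both fractions. These further ratios were not tested either.

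Within troponin I and within troponin C, the fast to slow ratio had no separation of the genotypes. The ratio of fast Tnni2 to slow Tnni1 was -1.61 and -1.48 in WT against -1.91 and -1.50 in AUF1 total RNA, a mean change of -0.16 with overlapping groups. On polysomes the mean change was -0.18, again with overlap. The ratio of Tnnc2 to Tnnc1 was -2.54 and -2.33 in WT and -2.78 and -2.18 in AUF1 total RNA, a mean change of -0.04, and the mean change on polysomes was 0.04, with overlap in both fractions. Whether the change of the troponin T ratio differed from those of the other subunits was not tested.

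**Figure D4:**
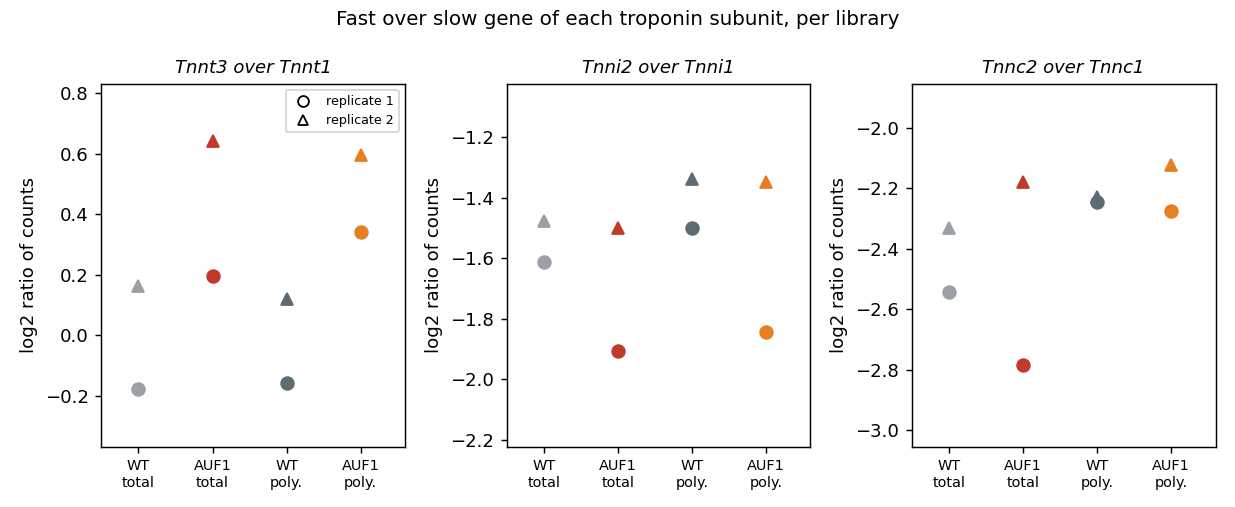
Log2 ratio of fast to slow gene counts for troponin T, I and C in each library, with circles for replicate 1 and triangles for replicate 2, on axes of equal span. In the troponin T panel both AUF1 libraries of each fraction lie above both WT libraries, and in the troponin I and C panels the genotypes overlap.

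Levels of different genes were compared per length, as TPM, counts divided by the union of annotated exons and scaled to a common total. Tnnc1 was the most abundant troponin mRNA in all 4 groups, at 2636 ± 562 TPM in WT total RNA and 11935 ± 1177 TPM in AUF1 total RNA (SD, n = 2). Its place among all genes with a length moved from 21 to 6 in total RNA and from 13 to 4 on polysomes. No Tnnc1 library overlapped the next gene, Tnnt3, in any group. Below it, neighbours in the order Tnnt3, Tnnc2, Tnnt1, Tnni1 and Tnni2 of the WT total libraries overlapped at each step. Within each WT total library alone the same order held. Tnnt2 came last by this length, and its place depends on the length used, since the union of its exons is 7752 bp and its median coding transcript 1097 bp. By the latter length Tnnt2 was above Tnnt1 in mean TPM in every group and above Tnnt3 in all but AUF1 total RNA. In WT total RNA, the means on that scale were 840 TPM for Tnnt2, 688 for Tnnt1 and 652 for Tnnt3. Other places moved too. Of the 7 in WT total RNA, by union and then by median coding length, Tnnt3 stood at 2 and 5. Tnnc2 stood at 3 and 7, and Tnni1 at 5 and 2, while Tnnc1, Tnnt1 and Tnni2 kept theirs.

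As shares of their subunit on the union scale, slow and cardiac Tnnc1 made up 77.0% to 84.1% of troponin C mRNA over the 8 libraries, and fast Tnnc2 the rest. Slow Tnni1 made up 51.3% to 60.9% of troponin I, but 64.1% to 72.6% by the median coding transcript. Fast Tnnt3 made up 49.7% ± 3.45 of troponin T in WT and 56.8% ± 4.59 in AUF1 total RNA (SD, n = 2), slow Tnnt1 35.9% ± 3.50 and 30.6% ± 4.19, and Tnnt2 14.3% ± 0.0498 and 12.6% ± 0.393. By the median coding transcript the troponin T shares were 29.5% and 35.5% for Tnnt3, 32.1% and 28.8% for Tnnt1, and 38.4% and 35.6% for Tnnt2, so the order within troponin T turned while the direction of each difference did not.

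Across the 8 libraries the log2 ratio of Tnni2 to Tnnc1 varied least of all troponin pairs, with an SD of 0.07 and a range of 0.22. The pair Tnni1 and Tnnc2 varied most, with a range of 1.16. Among all other tested genes with a proper name, those whose log2 CPM followed each troponin gene most closely were, by Pearson's r over the 8 libraries, Smpx for Tnnt1 (0.997), Pkp4 for Tnnt2 (0.997), Myl1 for Tnnt3 (0.998), Trim54 for Tnni1 (0.998), Fblim1 for Tnni2 (0.998), Fblim1 for Tnnc1 (0.998) and Nrbp2 for Tnnc2 (0.996). Next came Map3k9 and Myl1 for Tnnt1, Bex1 and Sh3bgr for Tnnt2, Gpt2 and Mafa for Tnnt3, Cox8b and Psrc1 for Tnni1, Myog and Cacnb1 for Tnni2, Bin1 and Myog for Tnnc1, and Ptges3l and Selrc1 for Tnnc2. These points share libraries, depth and the split between genotypes, so any gene with a large difference between AUF1 and WT reaches a high r. Among the 100 genes closest to Tnnt1, Tnni2 and Tnnc1 were all 6 other troponin genes, and among those closest to Tnni1 only 3.

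The rest of the thin filament was read from a list of 26 further genes, all of them tested. In total RNA 4 rose and 0 fell: Tpm2, a muscle tropomyosin, by log2 2.51 ± 0.29 (SE, edgeR adjusted p = 0.0399), Klhl41, a Kelch protein of sarcomere maintenance, by 2.82 ± 0.35 (adjusted p = 0.0399), Tmod1, which caps filament ends, by 2.97 ± 0.41 (adjusted p = 0.0422), and Acta1, skeletal alpha-actin, by 2.68 ± 0.39 (adjusted p = 0.0439). The median over the list was 1.00, and 15 genes were higher and 5 lower without overlap, beside 22.5% and 17.8% of all genes. On polysomes 2 rose and 0 fell, Tpm2 by 2.40 ± 0.29 and Klhl41 by 3.02 ± 0.36 (edgeR adjusted p = 0.0461 for both), with a median of 0.86. Actc1, cardiac alpha-actin, had a log2 fold change of 3.95 ± 0.62 in total RNA (edgeR adjusted p = 0.0517) and 3.83 ± 0.62 on polysomes (adjusted p = 0.0662). Tpm1 and Tpm3, which like Tpm2 encode tropomyosins, differed by 1.17 ± 0.22 (edgeR adjusted p = 0.0828) and 0.00 ± 0.24 (adjusted p = 0.998) in total RNA. Tpm4, the other tropomyosin gene of the list, was lower in AUF1 cells without overlap in both fractions, by log2 -0.80 ± 0.32 in total RNA (edgeR adjusted p = 0.338) and -0.59 ± 0.31 on polysomes (adjusted p = 0.480).

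Other fast and slow fibre genes were read the same way. Of 8 fast fibre genes, Myh1, a fast myosin heavy chain, and Actn3, the fast fibre alpha-actinin, rose in both fractions and 0 fell. Myh1 rose by log2 4.27 ± 0.47 (SE) in total RNA and 3.77 ± 0.45 on polysomes, and Actn3 by 2.49 ± 0.28 and 2.19 ± 0.28 (edgeR adjusted p = 0.0399, 0.0461, 0.0399 and 0.0492). In the fast list 7 genes (total) and 6 (polysomes) had an unadjusted p under 0.05, DESeq2 called 7 and 6 higher, and the medians were 2.75 in total RNA and 2.33 on polysomes. Of 6 slow fibre genes 5 were tested and 0 were called by edgeR in either fraction, with 2 at an unadjusted p under 0.05 in each and 2 (total) and 1 (polysomes) called by DESeq2, and medians of 2.05 and 1.95. The slow median in total RNA was the value of Myl2, which had only 1 to 35 counts per library. Its groups overlapped there (log2 2.05 ± 1.18, edgeR adjusted p = 0.536). The difference between the fast and slow lists was not tested, and the slow list shares Tpm3 with the thin filament list.

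Marker levels of other cell types moved in part with the groups. The 8 skeletal muscle markers summed to 3983 and 4473 CPM in WT against 22919 and 18083 in AUF1 total RNA, present in every library. Of these, Acta1, Ckm and Myh3 rose in total RNA by edgeR, which called 0 on polysomes. In each fraction 5 had an unadjusted p under 0.05 and 5 were called higher by DESeq2. Myf5 went the other way, by log2 -0.78 ± 0.50 (SE) in total RNA (edgeR adjusted p = 0.579) and -0.50 ± 0.49 on polysomes (adjusted p = 0.785). It was lower without overlap on polysomes, as were 21.3% of all genes. Myod1 and Cdh15 overlapped in both fractions. Acta1, which is also in the thin filament list, gave 12324 and 9984 CPM of the AUF1 total RNA sums. The 10 heart muscle markers, listed because heart shares Tnnt2 and Tnnc1, summed to only 49.3 to 72.8 CPM over all 8 libraries, and 6 of them were tested. None was at 0 in every library, but Tbx20 (0 to 9 counts), Nppa (0 to 23), Hand2 (0 to 32) and Tnni3 (5 to 43) were near 0. Nkx2-5 (272 to 687 counts) and Gata4 (644 to 1264) were detected. Myl7 had 255 counts in WT polysome replicate 1 and 0 to 2 in every other library. The highest counts of Hand2, Nppa and Tbx20 were also in WT polysome replicate 1, and the cause was not tested. Of the 6 tested, edgeR called Tbx5 lower in both fractions and none higher, and DESeq2 called 1 lower in both fractions and 1 higher in total RNA. Myh6, a cardiac myosin heavy chain with 6 to 269 counts per library, was higher in AUF1 total RNA without overlap, by log2 3.16 ± 1.03 (SE, edgeR adjusted p = 0.242), and overlapped on polysomes. The 8 fibroblast markers summed to 4518 and 649 CPM in WT total RNA, 1533 and 390 in AUF1 total RNA, 3171 and 686 in WT polysomes and 733 and 403 in AUF1 polysomes (replicates 1 and 2). They were higher in replicate 1 throughout and, within each number, higher in WT, and edgeR called 0 of the 6 tested (3 at an unadjusted p under 0.05 and 3 lower by DESeq2, in each fraction). The part of these markers in the troponin differences was not tested.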

How the data were processed

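The table the authors deposited holds unnormalized counts of reads by gene symbol in 8 library columns. Its 5 summary lines were left out (reads outside genes were 6.04% to 7.23% of counts). Per the submitters' processing notes, cutadapt, Trimmomatic, Bowtie, STAR and SAMtools were used with build mm10. The counter, strandedness and gene models used by the authors were not given in the sources used here. Per the labels, libraries were made from 500 ng RNA, and the libraries titled High were read as heavy polysomes. Titles number the replicates 1 and 2, and descriptions call the second Rep3.

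Genes were kept by filterByExpr and scaled by TMM. One quasi-likelihood model over all 8 libraries, with a coefficient for each group, was fitted in edgeR 4.0.16 (R 4.3.3), with 4 residual degrees of freedom, two-sided tests and Benjamini-Hochberg adjustment over 13167 genes. Each SE was taken as the fold change on the log2 scale divided by the root of F, and likeness used log2 CPM with a prior count of 2. DESeq2 1.42.0 and the other alternatives are given at the end. Lengths came from GENCODE M21 and were found for 94.0% of tested genes. The model was tested on simulated data.

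Members and lists were chosen with earlier results of these data known. Named are the members, Hnrnpd, up to 4 thin filament genes with the smallest p in total RNA plus Tnni3, Acta1, Actc1 and Tpm2, and 3 genes most like each member. Tpm1, Tpm3, Tpm4, Myh6, Myh1, Actn3, Ckm, Myh3, Tbx5, Myf5, Myod1, Cdh15, Hand2, Myl7, Myl2 and the neighbouring genes were named after their values were seen. A smooth muscle list (5 of 6 tested) had 1 gene higher in total RNA and 0 on polysomes (4 at an unadjusted p under 0.05 and 3 by DESeq2 in each).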

Additional observations from a re-analysis of the deposited data

How the results depend on the processing

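All 7 troponin genes kept a higher value in AUF1 than in WT cells in both fractions under every alternative run, but the number called did not hold. In total RNA it was 2 as planned, 7 with DESeq2, 5 with no filter on low counts, 0 with RLE size factors and 0 with only the 2 groups fitted. On polysomes it was 1 as planned, 7 with DESeq2, 0 with RLE size factors and 0 with only the 2 groups fitted. Leaving out 1 library gave 0 in both fractions without the block and 7 with it, where 329 to 2975 genes over the table were called in total RNA and 592 to 3011 on polysomes. With the replicate number as a block, all 7 were called in both fractions (edgeR adjusted p from 0.000265 to 0.0011 in total RNA and from 0.000316 to 0.00199 on polysomes), and 1730 (13.1%) and 1716 (13%) genes over the table against 134 and 46 without it. Leaving out any 1 library without the block left 0 genes called over the table. DESeq2 called 824 and 809, and edgeR with no filter 166 and 94. The labels do not say what a number shares, and only 2 exist, so they were not treated as pairs. Deviations from group means correlated between groups at r of 0.62 to 0.81 over genes, and the first principal component (44.6% of variance) separated the numbers. The block turned the sign of Tnnc1 between polysomes and total RNA in AUF1 cells, from 0.053 to -0.011.

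With 1 library left out, interaction values ran from -0.67 to 0.23 (Tnnc1), -0.68 to 0.34 (Tnnc2), -0.58 to 0.11 (Tnni1), -0.62 to 0.18 (Tnni2), -0.47 to 0.29 (Tnnt1), -0.42 to 0.35 (Tnnt2) and -0.56 to 0.53 (Tnnt3). Polysome against total values in AUF1 cells ran from -0.38 to 0.41 (Tnnc1), -0.11 to 0.73 (Tnnc2), -0.44 to 0.28 (Tnni1), -0.27 to 0.40 (Tnni2), -0.066 to 0.48 (Tnnt1) and -0.18 to 0.63 (Tnnt3). In WT cells they ran from -0.18 to 0.71 (Tnnc1), -0.17 to 0.46 (Tnni1), -0.11 to 0.64 (Tnni2), -0.091 to 0.67 (Tnnt1) and -0.27 to 0.77 (Tnnt3). The change of the fast to slow ratio ran from 0.20 to 0.65 in total RNA and 0.35 to 0.62 on polysomes for troponin T, from -0.36 to 0.044 and -0.42 to 0.072 for troponin I, and from -0.35 to 0.26 and -0.040 to 0.11 for troponin C. Other gene lengths moved 18 of 28 shares (longest transcript), 25 of 28 (median coding transcript, chosen after seeing the data) and 26 of 28 (no length). The cause of these shifts was not tested.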
